A study of Mus musculus with 9 samples.

Results

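The RNA of 10 bile acid and organic anion transporters was followed in 9 mouse liver libraries. The transporters were taken by gene symbol from the deposited table of 54532 genes, and all 10 were found and passed the filter on low counts. They comprise 5 carriers that bring bile acids and organic anions into the liver cell (Slc10a1, Slco1a1, Slco1a4, Slco1b2 and Slco2b1) and 5 pumps that move such compounds or phospholipid out of it. Of the pumps, Abcb11, Abcb4 and Abcc2 act at the canalicular membrane, which faces the bile, and Abcc3 and Abcc4 act at the basolateral membrane, which faces the blood. All mice were wild-type C57BL/6, in 3 groups of 3. Young mice were 8 weeks old, with no injection described. Both old groups were male, were given adeno-associated virus 9 at 14 months of age through the tail vein and directly into subcutaneous fat, and were killed at 20 months. Old control mice received AAV9-shRNA-Neg, with a hairpin meant as a negative control. Old Fabp4 shRNA mice received AAV9-shRNA-Fabp4, with a hairpin directed at Fabp4, a fatty acid binding protein best known from fat cells. Because only old mice were injected, age and injection cannot be told apart in any comparison with young mice. The promoter that drives each hairpin and the cell types it reaches are not given in the labels.

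Liver cells draw bile acids from portal blood with a sodium-coupled carrier and with several sodium-independent organic anion carriers, and return them to bile with ATP-driven pumps. The canalicular pumps set bile flow and composition, while the basolateral pumps offer an overflow route back to blood. The farnesoid X receptor, a nuclear receptor encoded by Nr1h4, senses bile acids in the liver cell and is known to activate Abcb11, and several organic anion carriers are known to differ between male and female mouse liver.

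Total counts ran from 14243344 to 17125440 per library. The labelled tissue was checked against 9 hepatocyte marker genes found in the table, none of which was at 0 in any library, with a summed level of 112500 to 175500 CPM (counts relative to library size after TMM scaling) in young, 93300 to 141700 in old control and 77050 to 93150 in old Fabp4 shRNA libraries. All 9 libraries held 44.6 to 67.0 CPM of the Y-linked Ddx3y and at most 0.465 CPM of Xist. Kidney, which also uses several of these carriers, was represented by 8 markers that summed to at most 0.126 CPM. Fabp4 levels of the old groups overlapped, with 7.21, 13.6 and 10.9 CPM after the control hairpin and 11.2, 3.81 and 7.58 CPM after the Fabp4 hairpin, so the targeted gene did not separate the labels. One young column carries a number that no sample label has and is called the unnumbered young library. It held up to 4156 CPM of summed skeletal muscle markers, against at most 88.1 CPM elsewhere, and 64.8 CPM of Fabp4, and its deposited count and FPKM columns hold different reads. Several results of the transporters are therefore also given without it, while those of the other gene lists and markers are not.

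The genes lie on GRCm38 as follows, per GENCODE mouse release 21. Slc10a1 (ENSMUSG00000021135) spans chr12:80953183-80968705 on the minus strand. Slco1b2 (ENSMUSG00000030236, chr6:141629518-141686646, plus strand), Slco1a4 (ENSMUSG00000030237, chr6:141805440-141856199, minus strand) and Slco1a1 (ENSMUSG00000041698, chr6:141907282-141946962, minus strand) are neighbours in the Slco1 cluster of chromosome 6. The other cluster genes of that stretch were nearly silent: Slco1a5 and Slco1a6 reached at most 0.104 and 0.232 CPM. Slco2b1 (ENSMUSG00000030737) spans chr7:99657804-99711340 on the minus strand. Abcb11 (ENSMUSG00000027048) spans chr2:69238282-69342616 on the minus strand, Abcb4 (ENSMUSG00000042476) chr5:8893717-8959231 on the plus strand and Abcc2 (ENSMUSG00000025194) chr19:43782192-43840740 on the plus strand. Abcc3 (ENSMUSG00000020865) spans chr11:94343295-94392997 and Abcc4 (ENSMUSG00000032849) chr14:118482692-118706219, both on the minus strand. Of the 50-base words in the members' transcripts, at most 5.89% also occur in another gene's transcripts: that share belongs to Slco2b1, whose words recur in antisense transcripts counted 0 to 54 times per library, against at least 1497 counts for Slco2b1. Slco1a1 shares 1.64% and Slco1a4 1.61% of words with other genes of their cluster, each other included. Abcb4 shares 2.87%, among others with Abcb1a and Abcb1b, so a small part of their counts could have been split between copies.

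The promoters of 4 transporters are shown, chosen by the place of these genes in the results: Slc10a1 and Slco1b2 held the highest levels per length, Slco1a1 had the smallest p-value, and Abcb11 is the main bile acid pump. No link between a promoter sequence and a level was tested. Each sequence is the 250 bases before the start site, 5' to 3' on the gene's own strand, from RefSeq on GRCm38.p6, and 9 of the 10 members have an entry (all but Abcc3). The positions are chr12:80968706-80968955 (minus strand) for Slc10a1, chr6:141629268-141629517 (plus) for Slco1b2, chr6:141946963-141947212 (minus) for Slco1a1 and chr2:69342617-69342866 (minus) for Abcb11. Capitals mark matches to the motifs described next.
Slc10a1: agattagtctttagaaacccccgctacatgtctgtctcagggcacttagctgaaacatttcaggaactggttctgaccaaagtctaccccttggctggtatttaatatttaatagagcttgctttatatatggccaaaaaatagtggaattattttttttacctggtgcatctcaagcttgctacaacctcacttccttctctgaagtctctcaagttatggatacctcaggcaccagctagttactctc
Slco1b2: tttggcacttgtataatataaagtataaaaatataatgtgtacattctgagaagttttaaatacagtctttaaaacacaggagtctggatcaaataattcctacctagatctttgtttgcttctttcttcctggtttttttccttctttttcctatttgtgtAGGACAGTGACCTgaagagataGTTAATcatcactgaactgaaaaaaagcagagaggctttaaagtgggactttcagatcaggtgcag
Slco1a1: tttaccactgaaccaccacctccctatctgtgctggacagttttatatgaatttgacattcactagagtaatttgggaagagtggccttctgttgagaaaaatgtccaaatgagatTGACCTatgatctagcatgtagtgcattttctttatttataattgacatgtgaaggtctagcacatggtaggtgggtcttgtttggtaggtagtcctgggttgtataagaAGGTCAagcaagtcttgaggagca
Abcb11: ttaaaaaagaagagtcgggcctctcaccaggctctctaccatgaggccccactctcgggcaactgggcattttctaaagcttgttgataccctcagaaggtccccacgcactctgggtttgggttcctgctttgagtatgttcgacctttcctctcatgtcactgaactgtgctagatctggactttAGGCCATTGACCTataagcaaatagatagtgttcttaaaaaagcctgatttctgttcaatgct

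Motifs were searched on both strands of these windows and of all 32851 promoters of the same length. The nuclear receptor half-site AGGTCA was in 4 of the 9 member promoters (Abcb11, Abcc2, Slco1a1 and Slco1b2), against 14.0% of all promoters. A pair of such half-sites facing each other 1 base apart, with at most 1 mismatch in all, was in those of Abcb11 and Slco1b2, against 0.0791% of all promoters. This pair overlaps the single half-site in both. It lies 63 to 51 bases before the Abcb11 start site and 88 to 76 bases before that of Slco1b2, and an inverted pair of this kind is the arrangement the farnesoid X receptor is known to bind. The HNF1 half-site GTTAAT was in the Slco1b2 promoter only, against 6.43% of all promoters. The antioxidant response core TGACNNNGC was in those of Abcc2 and Abcc4, against 10.2%. No match to any of these letters was in the Slc10a1 window. A match is a run of letters and not a measured binding site.

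For the order of the genes, levels were compared per length, as each gene's share of the 10 transporters' summed FPKM (fragments scaled to gene length and library size) in a library. Slc10a1 had the highest median share, 33.0% (range 22.3% to 41.5%), followed by Slco1b2 with 27.1% (18.6% to 34.8%), Abcb11 with 11.4% and Abcb4 with 7.12%. Abcc2 held a median of 6.34%, Abcc3 5.38%, Slco1a1 4.22%, Slco2b1 4.07% and Slco1a4 3.03%. Abcc4 held 0.0537%, with 15 to 64 counts per library, so its values are the least precise of the 10. Slco1b2 exceeded Abcb11, Abcb11 exceeded Abcb4, and Slco1a4 exceeded Abcc4 in all 9 libraries. Other neighbours in this order changed places between libraries: Slc10a1 was above Slco1b2 in 5 of 9 libraries and Abcb4 above Abcc2 in 4 of 9. Slco1b2 was the higher of the leading pair in old control library 1 and in all 3 old Fabp4 shRNA libraries. In group means, the share of Slc10a1 was 37.0% ± 4.11 (SD, n = 3) in young, 29.6% ± 6.33 in old control and 25.7% ± 4.72 in old Fabp4 shRNA livers, while that of Slco1b2 was 22.3% ± 4.95, 25.7% ± 2.11 and 32.5% ± 2.16.

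**Figure D1:**
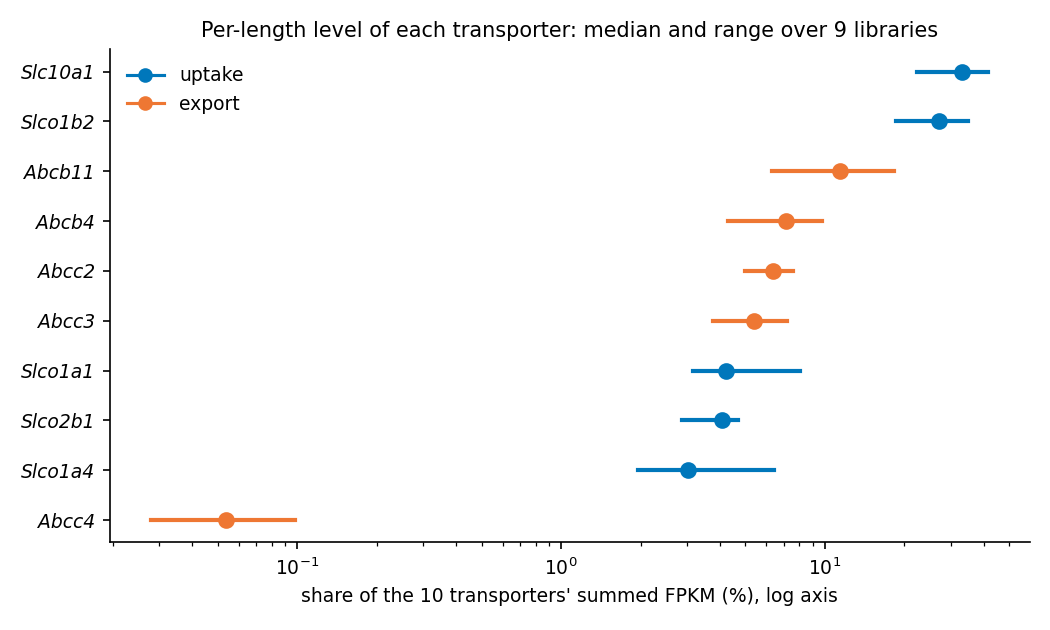
Share of each transporter in the summed FPKM of all 10 (percent, logarithmic axis), with the median (point) and the lowest to highest of 9 libraries (line), uptake carriers in blue and export pumps in orange. Slc10a1 and Slco1b2 lead with medians of 33.0% and 27.1%, and Abcc4 lies far below the rest at 0.0537%.

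In what follows, values of single libraries are TMM-scaled CPM, which compare a gene between libraries. They are given in the order young 1, unnumbered and 5, then old control 1, 2 and 5, then old Fabp4 shRNA 1, 3 and 6. Differences are edgeR log2 differences with their standard error (SE), and p-values measure the spread between these livers only. In whole liver, fewer liver cells and less RNA per cell cannot be told apart.

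Slc10a1 encodes the sodium-taurocholate carrier, the main route for conjugated bile acids. It was at 565, 373 and 528 CPM in young, 210, 438 and 392 in old control, and 428, 334 and 281 in old Fabp4 shRNA livers. Old control library 1 was the lowest of all and the 2 numbered young libraries were the highest. Young overlapped both old groups, but only through the unnumbered young library. The reads behind the FPKM values of that library gave 499 CPM instead of 373 CPM. Without it, or with those reads, young livers were above all old livers. The log2 difference was -0.50 (SE 0.30, 95% interval -1.14 to 0.15, adjusted p = 0.573) between old control and young, and -0.49 (SE 0.30, adjusted p = 0.634) between old Fabp4 shRNA and young. Without old control replicate 1 the first of these was -0.24, and with the replicate block, on 5 libraries, it was -0.97 (edgeR adjusted p = 0.0836). The old groups differed by 0.01 (SE 0.30, interval -0.64 to 0.65).

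Slco1a1, a sodium-independent organic anion carrier known to be more abundant in male than in female mouse liver, gave the smallest p-value of any member. It was at 140, 215 and 199 CPM in young, 73.8, 102 and 120 in old control, and 105, 118 and 178 in old Fabp4 shRNA livers. Every old control liver was below every young liver, and the old Fabp4 shRNA livers overlapped both. The mean of old control livers was 98.5 ± 23.3 CPM (SD, n = 3) and that of young livers 185 ± 39.4, a log2 difference of -0.91 (SE 0.27, interval -1.50 to -0.31). Its unadjusted edgeR p was 0.00577 and the adjusted p 0.319, so it did not pass the threshold of 0.05, and an exact two-sided permutation test of these 6 values gave p = 0.1, the smallest that 3 against 3 allows. Old Fabp4 shRNA livers were at 134 ± 39.3 CPM, a log2 difference of 0.44 (SE 0.27, adjusted p = 0.796) from old control and -0.47 (SE 0.27, adjusted p = 0.62) from young. Without old Fabp4 shRNA replicate 6 these were 0.18 and -0.73, and without old control replicate 1 the first was 0.27.

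Other genes known to be male-biased in liver stood beside Slco1a1 in the comparison of old control with young. Of 15 tested, 12 had an estimate below 0, with a median of -0.64 against 0.01 over all tested genes, and none was called. Their summed level was 6927 to 8729 CPM in young, 3658 to 6736 in old control and 2692 to 4729 in old Fabp4 shRNA livers, and none was at 0 in any library. This sum is weighted to abundant genes: Mup20 alone was at 3852, 5959 and 4994 CPM in young livers. It was at 1806, 2337 and 4915 CPM in old control and 1481, 762 and 2433 CPM in old Fabp4 shRNA livers. In old Fabp4 shRNA against old control, 8 of the 15 estimates were above 0 and 7 below, with a median of 0.01. In old control against young, Keg1 had the smallest p of this list (log2 difference -1.09, SE 0.19, adjusted p = 0.139), followed by Hsd3b5, a steroid dehydrogenase (-2.17, SE 0.52, adjusted p = 0.247). At an unadjusted edgeR p under 0.05, 6 genes of the list were lower and 2 higher, against 10.5% of all genes in either direction. The higher ones were Serpina12 (2.27, SE 0.64) and Elovl3 (1.50, SE 0.64). Of 8 tested female-biased genes, 6 also had an estimate below 0. The part of either list in the Slco1a1 value was not tested.

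Markers of other cells were read in the same comparison. Estimates were above 0 for 8 of 8 endothelial genes (median 0.97; summed 83.2 to 94.8 CPM in young and 110 to 210 in old control), for 7 of 8 Kupffer cell and macrophage genes (median 0.76; 166 to 279 and 195 to 651 CPM) and for 6 of 6 tested neutrophil genes (median 1.23; 12.3 to 24.1 and 17.6 to 57.9 CPM, with Ly6g and Mpo at 0 in some libraries). They were below 0 for 7 of 7 red blood cell genes (median -1.82, 524 to 1032 and 189 to 330 CPM). For 8 of 8 tested bile duct cell genes (median 0.59) and 6 of 8 stellate cell genes (median 0.44) they were above 0. Of 9 hepatocyte genes, 6 were below 0 (median -0.18). Of 10 tested acute phase and inflammation genes, 10 were above 0 (median 0.87; 10720 to 14760 and 8945 to 26500 CPM, with Tnf and Il6 at 0 in some libraries). An unadjusted edgeR p under 0.05 was reached by 7 of 7 red blood cell, 5 of 8 endothelial and 3 of 8 Kupffer cell and macrophage genes. It was reached by 2 of 6 neutrophil, 2 of 8 bile duct, 2 of 8 stellate, 1 of 10 acute phase and 0 of 9 hepatocyte genes. Over all tested genes the share was 10.5% in either direction. None of these genes was called, and their part in the transporter values was not tested.

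Slco1a4, the neighbour of Slco1a1 and a carrier of bile acids and cardiac glycosides, was at 186, 96.2 and 144 CPM in young, 82.8, 150 and 223 in old control, and 122, 81.3 and 81.4 in old Fabp4 shRNA livers. Old control livers spanned the widest range, 2.69 times from lowest to highest. The log2 difference between old Fabp4 shRNA and old control was -0.68 (SE 0.35, interval -1.44 to 0.08, adjusted p = 0.744), the furthest below 0 of any member in that comparison. It was -0.29 without old control replicate 5, the highest library. Old control differed from young by 0.09 (SE 0.35, adjusted p = 0.945).

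Slco1b2, the carrier for unconjugated bile acids and bilirubin conjugates, was at 569, 509 and 919 CPM in young, 566, 794 and 619 in old control, and 1071, 1026 and 852 in old Fabp4 shRNA livers. All 3 old Fabp4 shRNA livers were above all 3 old control livers, while young replicate 5 lay among the old Fabp4 shRNA livers. The means were 983 ± 116 CPM (SD, n = 3) and 660 ± 120 in the old groups, a log2 difference of 0.58 (SE 0.27, interval -0.01 to 1.16). The unadjusted edgeR p was 0.0535 and the adjusted p 0.741, and the exact permutation p was again 0.1. Against young, old Fabp4 shRNA livers differed by 0.56 (SE 0.27, adjusted p = 0.569). Old control and young livers differed by -0.01 (SE 0.27, interval -0.60 to 0.57).

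Hepatocyte markers did not stand on the same side as Slco1b2 in old Fabp4 shRNA against old control: 8 of 9 had an estimate below 0, with a median of -0.33. Markers of other liver cells were also mostly below 0 there. That held for 8 of 8 Kupffer cell and macrophage genes (summed 195 to 651 CPM in old control against 115 to 224 in old Fabp4 shRNA) and for 6 of 8 endothelial genes (110 to 210 against 98.7 to 204 CPM). It also held for 6 of 6 tested neutrophil genes (median -2.22; 17.6 to 57.9 against 5.74 to 15.0 CPM). Bile duct cell genes were below 0 in 8 of 8 tested (median -0.89) and stellate cell genes in 6 of 8 (median -0.14). Of 10 tested acute phase and inflammation genes, 8 were below 0 (median -0.58). Red blood cell genes went the other way, with 4 of 7 above 0 (median 0.28). In old Fabp4 shRNA against young, 8 of 9 hepatocyte genes were below 0, with a median of -0.51. None of these genes was called, and their part in the transporter values was not tested.

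Slco2b1, an organic anion carrier found in many tissues, was at 150, 95.6 and 184 CPM in young, 120, 152 and 125 in old control, and 157, 113 and 97.3 in old Fabp4 shRNA livers. The groups overlapped in every comparison. Its log2 differences were -0.12, -0.11 and -0.22 (SE 0.27 each) between old control and young, between the old groups, and between old Fabp4 shRNA and young.

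**Figure D2:**
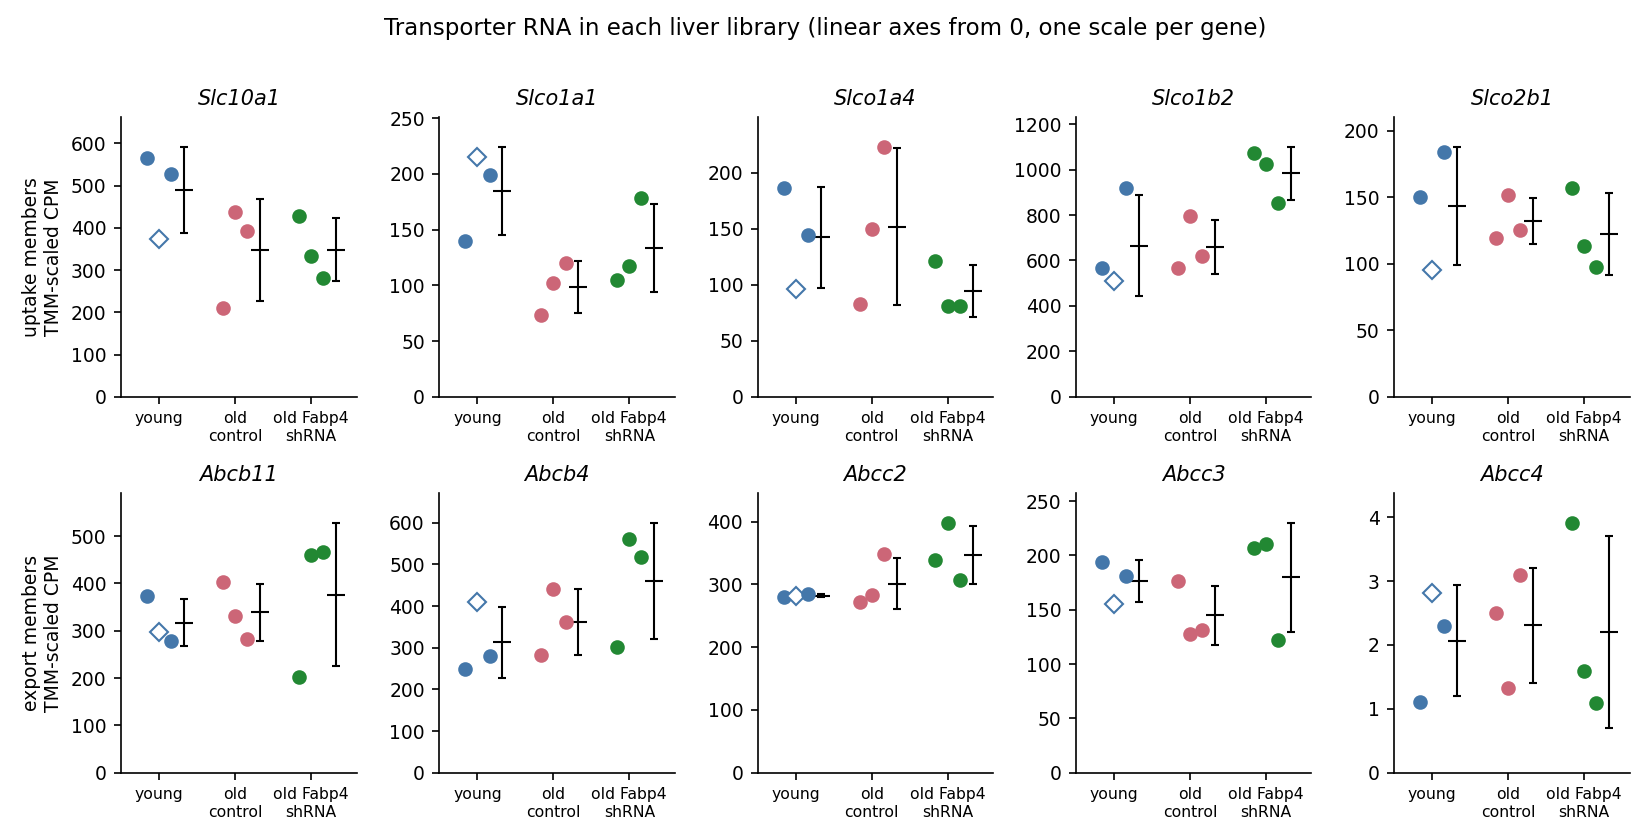
TMM-scaled CPM of each transporter (linear axes from 0, a scale of its own per gene) in the 3 livers of each group, with uptake carriers in the upper row and export pumps in the lower. Points are libraries, the open diamond is the unnumbered young library, and bars are mean ± SD; all old control points of Slco1a1 lie below the young points, and all old Fabp4 shRNA points of Slco1b2 lie above the old control points.

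Abcb11 encodes the bile salt export pump. It was at 373, 298 and 279 CPM in young, 403, 332 and 282 in old control, and 202, 461 and 466 in old Fabp4 shRNA livers. The old Fabp4 shRNA group held both the lowest and the 2 highest values of the 9, and replicate 1 was the low one. That library also stood apart from its group in some clock genes, but not in all. Dbp was at 53.5 CPM there and at 0.496 and 4.86 CPM in the other libraries of the group, Per3 at 42.8 against 0.938 and 2.09, and Arntl at 0.916 against 28.7 and 8.25. Other genes of that list lay closer: Nr1d2 was at 80.0 against 48.4 and 72.6, and Hlf at 51.8 against 48.3 and 35.1. Noct, at 157, lay between 240 and 84.3. In young livers Dbp was at 100, 32.4 and 90.1 CPM and in old control at 0.581, 0.589 and 16.4. These genes were named after their values were seen, and their part in the Abcb11 values was not tested. The log2 difference was 0.10 (SE 0.30) between old control and young, 0.15 (SE 0.30) between the old groups and 0.25 (SE 0.31) between old Fabp4 shRNA and young.

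Abcb4, which moves phosphatidylcholine into bile, was at 250, 410 and 281 CPM in young, 283, 440 and 361 in old control, and 301, 560 and 519 in old Fabp4 shRNA livers. The groups overlapped in each comparison, and old Fabp4 shRNA replicate 1 was again the lowest of its group. Old Fabp4 shRNA livers differed from young by a log2 value of 0.55 (SE 0.29, interval -0.08 to 1.19, adjusted p = 0.589), from old control by 0.35 (SE 0.29), and old control from young by 0.20 (SE 0.29). Leaving out 1 library at a time, the difference between the old groups ran from 0.18 (without old Fabp4 shRNA replicate 3) to 0.58 (without old Fabp4 shRNA replicate 1). That between old control and young ran from 0.03 (without old control replicate 2) to 0.42 (without the unnumbered young library).

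Abcc2, the canalicular pump for bilirubin and glutathione conjugates, was at 281, 282 and 284 CPM in young, 273, 284 and 348 in old control, and 338, 398 and 306 in old Fabp4 shRNA livers. By these counts the young livers had an SD of 1.67 CPM, and each old Fabp4 shRNA liver was above each young liver. In the unnumbered young library, the reads behind its FPKM values gave 335 CPM instead of 282 CPM, which is above old Fabp4 shRNA replicate 6, so that the groups then overlapped. The difference between old Fabp4 shRNA and young was 0.30 on the log2 scale (SE 0.21, interval -0.15 to 0.75, adjusted p = 0.675), 0.30 without that library and 0.21 (SE 0.21) with the recovered reads. Abcc2 had the narrowest intervals of the 10 members, and the other comparisons gave 0.09 (old control against young) and 0.21 (old Fabp4 shRNA against old control).

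Abcc3, a basolateral pump for glucuronides and bile acids, was at 194, 155 and 181 CPM in young, 176, 127 and 131 in old control, and 207, 211 and 122 in old Fabp4 shRNA livers. The groups overlapped, and its log2 differences were -0.29, 0.31 and 0.03 (SE 0.25 each) in the same 3 comparisons. Abcc4, the basolateral pump for bile acids with glutathione and for nucleotides, was at 1.11, 2.81 and 2.29 CPM in young, 2.50, 1.32 and 3.09 in old control, and 3.91, 1.60 and 1.10 in old Fabp4 shRNA livers. Its log2 differences lay between -0.08 and 0.16, with SEs of 0.55, and the interval for old control against young ran from -1.04 to 1.35.

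**Figure D3:**
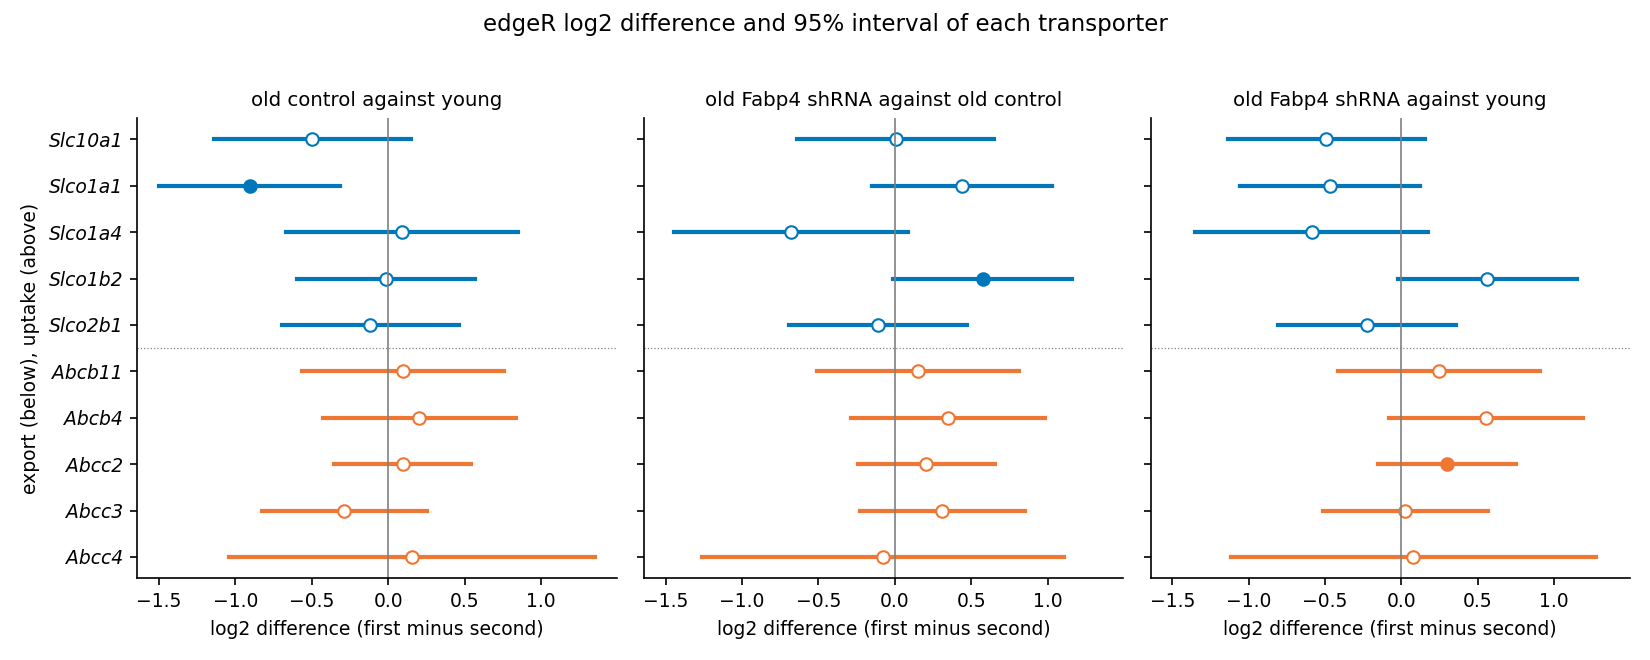
Log2 difference of each transporter in the 3 comparisons (points) with its 95% interval (lines), uptake carriers in blue above and export pumps in orange below; filled points are members whose 2 groups do not overlap. The interval of Slco1a1 in old control against young (-1.50 to -0.31) is the only one that does not span 0.

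Read over all members, 0 of 10 were called in old control against young, where edgeR called 0.0357% of all 14025 tested genes. At an unadjusted p under 0.05 there was 1 member, Slco1a1, against 10.5% of all genes. Groups did not overlap for 1 member with old control lower (8.26% of all genes) and for 0 with old control higher (8.89%). These shares are near the background. With the recovered reads of the unnumbered young library, Slc10a1 was also apart, with old control lower. The share of all genes was not computed for those reads. DESeq2 and limma-voom also called 0 members. The median log2 difference was -0.12 over the uptake members and 0.10 over the export members, against 0.01 over all tested genes.

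In old Fabp4 shRNA against old control, 0 of 10 members were called and 0% of all genes. No member had an unadjusted edgeR p under 0.05, against 6.75% of genes. Groups did not overlap for Slco1b2, with old Fabp4 shRNA higher (6.02% of all genes), and for no member in the other direction (5.67%). DESeq2 and limma-voom called 0 members. Uptake members had a median of 0.01 and export members 0.21, against -0.01 over all genes.

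In old Fabp4 shRNA against young, 0 of 10 members were called, against 0.057% of all genes, and 0 had an unadjusted edgeR p under 0.05, against 8.93%. Groups did not overlap for Abcc2, with old Fabp4 shRNA higher (6.79% of all genes), though they did with the recovered reads of the unnumbered young library, and for no member in the other direction (6.67%). With those reads, Slc10a1 was apart, with old Fabp4 shRNA lower. DESeq2 and limma-voom again called 0. Uptake members had a median of -0.47 and export members 0.25, against 0.02 over all genes. The 3 comparisons share libraries pairwise, so their values are not independent of each other.

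Uptake was then set against export within each library. The 5 uptake members made up 73.2%, 68.0% and 77.6% of the summed FPKM in young, 60.0%, 71.9% and 70.8% in old control, and 76.4%, 64.0% and 64.1% in old Fabp4 shRNA livers. The group values were 72.9% ± 4.82, 67.6% ± 6.61 and 68.2% ± 7.10 (SD, n = 3 each), and all 3 groups overlapped. Young overlapped old control only through the unnumbered young library, at 68.0%. Without it, both other young livers were above every old control liver, while old Fabp4 shRNA replicate 1 lay between them. As a ratio, uptake stood at 2.77 ± 0.67 times export in young, 2.16 ± 0.58 in old control and 2.26 ± 0.83 in old Fabp4 shRNA livers. Old control library 1 had the lowest uptake share of the 9, the library in which Slc10a1 was also lowest. That library was also the highest in some inflammation and macrophage genes, but not in all. Lcn2, an acute phase gene, was at 951 CPM there and at most 302 elsewhere, Hp (haptoglobin) at 17151 and at most 12113, and the Kupffer cell gene Clec4f at 212 and at most 97.2. Among genes of the same lists that peaked elsewhere, Saa1 was at 1251 CPM there and at 1521 in old Fabp4 shRNA replicate 3. Fgb was at 4155 there and 8216 in old control replicate 2, and Timd4 at 6.57 there and 8.47 in young replicate 5. These genes were named after their values were seen, and their part in the uptake share was not tested. In the deposited FPKM column of the unnumbered young library, the share was 72.1%, just above the highest old control value of 71.9%.

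On the log2 scale, the mean difference of the uptake members minus that of the export members was -0.34 in old control against young, -0.14 between the old groups and -0.48 in old Fabp4 shRNA against young. Single libraries of a group varied around their mean of this measure with a pooled SD of 0.36. With the 3 canalicular pumps only, the values were -0.42, -0.19 and -0.61. Single libraries then varied with an SD of 0.39 in young, 0.32 in old control and 0.56 in old Fabp4 shRNA livers. With all export members, the first value was -0.13 without old control replicate 1, and the second was 0.0044 without old control replicate 2. In old control against young, 4 of 5 uptake members had an estimate below 0 and 4 of 5 export members above 0. In old Fabp4 shRNA against young, the counts were 4 of 5 and 5 of 5. Between the old groups, 2 of 5 uptake members were below 0 and 3 above, and 4 of 5 export members were above 0. No p-value is given for these means.

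**Figure D4:**
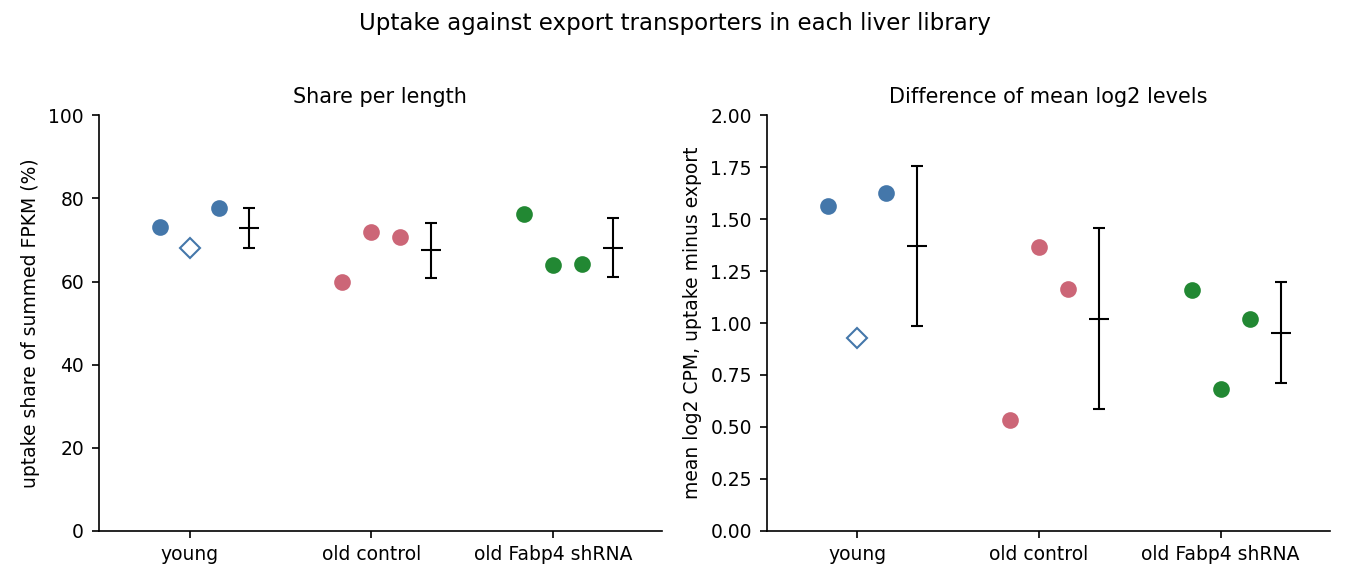
Uptake against export in each library: the uptake share of the transporters' summed FPKM in percent (left) and the mean log2 CPM of uptake minus export members (right), by group. Points are libraries, the open diamond is the unnumbered young library and bars are mean ± SD. The uptake share runs from 60.0% to 77.6% and the groups overlap in both panels. Young overlaps old control only through the open diamond. The right panel is not scaled to gene length, so it compares libraries and does not show that uptake exceeds export. Its mean in young livers was 1.37 with all export members and -0.24 with the canalicular pumps only.

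Without the unnumbered young library, Slco1a1 differed between old control and young by -0.81 (SE 0.31, edgeR adjusted p = 0.403), and with the reads recovered from its FPKM column by -1.25 (SE 0.34, adjusted p = 0.155). Those reads gave 352 CPM of Slco1a1 against 215 CPM in the count column. Slc10a1 was at -0.69 without the library, Slco1a4 turned to -0.15 in the same comparison, Abcc3 turned to -0.06 in old Fabp4 shRNA against young, and Abcb4 in old Fabp4 shRNA against young at 0.80 (adjusted p = 0.343). Uptake minus export became -0.55 in old control against young and -0.69 in old Fabp4 shRNA against young. No member was called in either form.

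Genes that work with these transporters were counted from lists by role, and the pathway lists held 0 called genes in each comparison. Among 14 tested other solute carriers, 9 estimates were above 0 in old control against young, led by Slc22a27, an organic anion transporter (2.47, SE 0.68, edgeR adjusted p = 0.274), and Slc10a2, the bile acid carrier of ileum and bile ducts (1.43, SE 0.64, edgeR adjusted p = 0.484). Slc22a27 was at a low level, 0.665, 0.128 and 1.45 CPM in young and 3.20, 5.22 and 3.91 CPM in old control livers. Its lowest value was that of the unnumbered young library. Among 10 other export pumps, 5 were above 0. Abcb1a, a drug efflux pump, stood at 2.06 to 6.07 CPM in young and 1.18 to 1.45 CPM in old control livers (-1.53, SE 0.44, adjusted p = 0.296), and Abcg8, a subunit of the canalicular sterol pump, at 67.5 to 70.8 and 44.7 to 48.1 CPM (-0.57, SE 0.22, adjusted p = 0.41). Both pairs of groups were apart, as were those of 8.26% of all tested genes with old control lower, and neither gene was called. Both genes were named for having the smallest p-values of their list.

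Of 14 canalicular membrane and scaffold genes, 9 were above 0 in that comparison. Msn, which encodes moesin, a linker of membrane and actin, had a log2 difference of 0.92 (SE 0.25, adjusted p = 0.274). Slc9a3r1, a scaffold protein for membrane transporters, had -0.74 (SE 0.30, adjusted p = 0.419).

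Among 18 nuclear receptors and regulators, 10 were above 0 in old control against young, 11 between the old groups and 15 in old Fabp4 shRNA against young. The receptor gene Nr1h4 was at 186, 138 and 216 CPM in young, 165, 156 and 191 in old control, and 177, 140 and 123 in old Fabp4 shRNA livers, with log2 differences of -0.08, -0.22 and -0.29 (SE 0.23 each); it was named after its values were seen. Rxra, its dimer partner, was at 291, 363 and 294 CPM in young, 254, 248 and 183 in old control, and 351, 425 and 372 in old Fabp4 shRNA livers. Each old control liver was below each liver of the other groups. Of all tested genes, 8.26% were apart with old control below young and 6.02% with old Fabp4 shRNA above old control. Rxra had -0.47 (SE 0.22, edgeR adjusted p = 0.479) against young and 0.75 (SE 0.22, edgeR adjusted p = 0.728) between the old groups. Cebpa, a liver transcription factor, had -0.53 (SE 0.25, adjusted p = 0.484) against young.

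Of 17 tested bile acid synthesis and conjugation genes, 13 were below 0 in old control against young, with a median of -0.18, and 7 were below 0 in old Fabp4 shRNA against old control, with a median of 0.25. Akr1c14 (-0.50, SE 0.23, adjusted p = 0.475) and Slc27a5, which activates bile acids before conjugation (-0.58, SE 0.28, adjusted p = 0.484), had the smallest p-values of old control against young. Of 14 targets of the xenobiotic receptors and of NRF2, 9 were below 0. Gclc, of glutathione synthesis, had 0.83 (SE 0.34, adjusted p = 0.421) and Cyp3a11, a drug-metabolising enzyme, -0.64 (SE 0.33, adjusted p = 0.513).

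One clock-list gene was called. Noct, a rhythmic gene of liver, was at 20.3, 31.2 and 16.1 CPM in young, 228, 246 and 143 in old control, and 157, 240 and 84.3 in old Fabp4 shRNA livers. It was higher in old control than in young by 3.19 (SE 0.40, edgeR adjusted p = 0.0121) and in old Fabp4 shRNA than in young by 2.83 (SE 0.40, adjusted p = 0.0287). The time of day of dissection is not given in the labels, and its part in the transporter values was not tested.

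Genes whose log2 CPM ran most like each member's over the 9 libraries are given as a description, by Pearson's r. The points share depth, scaling and groups, and these were the highest r of all other tested genes. Slc10a1 ran closest to Gm11752 (r = 0.974) and Mrpl49 (0.958), Slco1b2 to Rmdn2 (0.955) and Entpd5 (0.938), and Slco1a1 to 2810004N23Rik (0.928) and Mat2b (0.926). The nearest genes of Slco1a4 were 3000002C10Rik (0.963) and Ccdc59 (0.961), and those of Slco2b1 were Zfp354b (0.971) and Lect2 (0.962). For the pumps they were Lsm10 (0.954) and Asic1 (0.941) for Abcb11, Psmd11 (0.973) and Ttc7b (0.972) for Abcb4, Dhx15 (0.932) and Ankib1 (0.916) for Abcc2, Arhgap21 (0.941) and Ttc21b (0.928) for Abcc3, and Tmem88 (0.945) and Slc35a4 (0.931) for Abcc4. No member was among the nearest genes of another. Between members, Slc10a1 ran with Slco1a4 (r = 0.727, and 0.885 after group means were removed) and with Slco2b1 (0.675), and Abcb11 ran against Abcc4 (-0.758). The cluster neighbours Slco1a1 and Slco1a4 had an r of 0.018.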

How the data were processed

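RNA-seq was measured in 9 mouse livers. Reads were aligned with HISAT2 to GRCm38.p6, per the submitters' processing notes. How reads were counted, and with which strand setting, is not given in the sources used here. In the labels, the extraction text names NRVMs, although the tissue is labelled liver. The authors' deposited tables hold raw read counts per gene, and FPKM in which the authors scaled fragments by length and depth. The FPKM were a fixed multiple of the count (relative tolerance 0.001) for 100% of 10483 genes with at least 20 counts in 8 columns, and for 0.229% in the unnumbered young column. Its count column was used; for per-length shares its counts were scaled with the length factors of the other columns. Its FPKM gave whole reads for 100% of 16632 values (within 0.05 reads). The library sizes implied by the FPKM columns differed from the count totals, so FPKM were used only as shares within a library and as an alternative.

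Libraries were grouped by the labels, and a column named by group letter with no matching title went to the young group. A robust two-sided quasi-likelihood test of edgeR 4.0.16 (R 4.3.3) was run on all 9 libraries, with 1 mean per group. Low counts were removed with filterByExpr, which left 14025 genes, and TMM (trimmed mean of M values) factors ran from 0.825 to 1.15. The model had 6 residual degrees of freedom and a biological coefficient of variation of 0.320. p-values were Benjamini-Hochberg adjusted over all tested genes, with calls at 0.05. SEs are the log2 difference divided by the root of F. The test was checked on simulated counts. Text names all members, the 2 nearest genes of each, called list genes or else the 2 smallest p-values of a list, and genes sharing sequence. The members and lists were chosen with earlier results of these data known. Alternatives were other scalings, no filter, DESeq2 1.42.0, limma-voom (limma 3.58.1), 6 libraries only, log2(FPKM + 1) and log2(FPKM + 0.1), the recovered reads, a replicate block and each library left out. Of the gene IDs, 54409 of 54532 were found in GENCODE.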

Additional observations from a re-analysis of the deposited data

How the results depend on the processing

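No member was called under any alternative run, in 20 other fits of old control against young and 19 of each comparison with old Fabp4 shRNA. The lowest adjusted p of a member in any fit was 0.0526 in old control against young, 0.462 between the old groups and 0.214 in old Fabp4 shRNA against young. Of 580 alternative member differences, 539 kept their direction and 41 did not, all from estimates near 0 within their SE. Over all genes, calls moved more than those of members: old control against young had 5, with 162 by DESeq2, 137 with no filter, 15 with 6 libraries and 12 with log2(FPKM + 0.1), and old Fabp4 shRNA against young had 8, with 104, 94 and 0 by the first 3 of these and 62 with recovered reads. The old groups differed in 0 genes, and in 4 by DESeq2 and 8 with no filter.

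Young and old control share the numbers 1 and 5 in the labels, which name no shared source. Same-numbered libraries deviated together with r = 0.112 and 0.0295, so the numbers are not shown to pair the livers. A replicate block on the 5 libraries with shared numbers, with 1 residual degree of freedom, could be fitted for old control against young only; uptake minus export was then -0.74 instead of -0.34, Slco1a4 -0.31, Slc10a1 -0.97 (adjusted p = 0.0836), Slco1a1 -0.86 (adjusted p = 0.0526) and the calls over all genes 414. The other comparisons share fewer than 2 numbers and were not run with it.

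Signs turned under limma-voom for Slco1b2 in old control against young (0.0205) and for Abcc3 (-0.0103) and Abcc4 (-0.0734) in old Fabp4 shRNA against young. Upper-quartile scaling gave Slc10a1 -0.0174 between the old groups and Abcc3 -0.005 against young. With log2(FPKM + 1), unfiltered too, Abcb11 was at -0.108 and Abcc2 at -0.0284 in old control against young, and Abcb11 at -0.0278 in old Fabp4 shRNA against young; with log2(FPKM + 0.1) these were -0.109, -0.0293 and -0.0296. The recovered reads gave Abcb11 -0.116 and Abcc2 -0.0215 in old control against young. The FPKM fits and the recovered reads use the same other reads of the unnumbered young library, so these turns are not separate. Those reads gave 426 instead of 298 CPM of Abcb11 and 335 instead of 282 CPM of Abcc2. The cause of the sign turns was not tested.

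Leaving out 1 library at a time turned signs within these ranges. In old control against young they were -0.293 to 0.387 for Slco1a4, -0.201 to 0.29 for Slco1b2, -0.366 to 0.103 for Slco2b1, -0.0448 to 0.229 for Abcb11, -0.0222 to 0.161 for Abcc2 and -0.145 to 0.425 for Abcc4. Between the old groups they were -0.253 to 0.214 for Slc10a1, -0.326 to 0.0341 for Slco2b1, -0.0293 to 0.454 for Abcb11 and -0.774 to 0.249 for Abcc4. In old Fabp4 shRNA against young they were -0.105 to 0.24 for Abcc3 and -0.619 to 0.404 for Abcc4.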

Other observations

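Hsd3b7, an enzyme of bile acid synthesis, was at 0 in 3 of 9 libraries and reached at most 0.697 CPM, while Cyp8b1 of the same pathway was at 268 to 584 CPM. Cyp7a1, the rate-limiting enzyme of that pathway, varied most within groups: it was at 204, 79.8 and 224 CPM in young, 20.5, 8.09 and 96.6 in old control, and 156, 16.7 and 21.4 in old Fabp4 shRNA livers. Its log2 difference between old control and young was -2.02 (SE 1.19, edgeR adjusted p = 0.586). These genes were named after their values were seen.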
